A study of Mus musculus with 2 samples.

Results

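Among mouse cells with transcripts of Rpe65, the isomerase that defines the retinal pigment epithelium (RPE), a group was set apart by the share of its RNA that came from the mitochondrial genome. These high-share RPE cells were chosen by measured values. A cell had to hold more than 500 unique molecular identifiers (UMIs, each counted as 1 captured RNA molecule), 200 to 6000 genes, and at least 10 UMIs and 1000 CPM (UMIs per 1000000 UMIs of the cell) of Rpe65. Serpina3n had to stay below 1000 CPM and Malat1 below 50000 CPM, and the UMIs of the 13 mitochondrially encoded genes had to make up 5% to below 20% of the cell's total. The rule left 236 such cells in the control library and 214 in the library from eyes given doxorubicin (Dox), 450 of 36030 deposited cells in all. They were compared with 1098 control and 999 Dox RPE cells that met the same limits but had a mitochondrial share below 5%, called low-share RPE cells here.

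The RPE is a pigmented, non-dividing monolayer behind the photoreceptors. It regenerates the visual chromophore, takes up shed outer segments, moves nutrients and ions between the choroid and the retina, and depends on mitochondrial oxidative phosphorylation. The respiratory chain is built from proteins of both genomes: the mitochondrial DNA encodes a few core subunits and the nucleus encodes the rest, so that the mitochondrial share of a cell's RNA and its nuclear-encoded respiratory transcripts can be read separately. The mitochondrial share of a droplet is also widely used as a quality measure, because cytoplasmic RNA can leave a damaged cell while mitochondria stay in it.

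The study asked how low-dose Dox, a topoisomerase poison used to induce senescence, changes the RPE in the living eye. C57BL/6J mice of 3 months received 1 µl of phosphate-buffered saline (control) or 1 µl of Dox at 100 ng/µl under the retina, without any transgene or mutation, and tissue was taken 7 days later. The RPE, choroid and sclera of 10 eyes from 5 mice were pooled for each library after removal of the retina, dissociated with papain, and sequenced with a 10x Genomics 5′ kit. In total 117731270 UMIs were counted in 20381 cells of the control and 103997248 UMIs in 15649 cells of the Dox library. With 1 library per condition no test between conditions was possible, and Dox, the pool of mice and the library cannot be told apart. Every interval given is an exact 95% interval that covers counting error only, not the variation between mice. The libraries shared 441 cell barcodes, of which 9 control and 6 Dox high-share cells carried one, and no barcode was high-share in both libraries.

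The high-share cells made up nearly the same fraction of the RPE cells within the limits in both libraries. They were 17.6% (interval 15.6 to 19.7) of the 1342 control RPE cells within the limits and 17.4% (15.3 to 19.7) of the 1228 Dox cells. Over all 1522 and 1617 RPE cells defined by Rpe65 alone, the percentages were 15.5% (13.7 to 17.4) and 13.2% (11.6 to 15). The median mitochondrial share within the group was 7.06% in the control and 7.03% in Dox, against 2.19% and 2.15% in low-share cells, values that the rule itself fixed. Most members lay near the lower limit: 189 of 236 control cells (80.1%) and 165 of 214 Dox cells (77.1%) had a share below 10%. No gap in the distribution marked the limit. Just below it, from 0.04 to 0.05, lay 99 control and 85 Dox cells with medians of 12948 and 14674 UMIs, and just above it, from 0.05 to 0.06, lay 68 and 65 cells with medians of 11862 and 12714 UMIs. The group is therefore a range of a continuous measure. Cells at 20% or more numbered 8 and 15 and were left out by the rule. RPE cells put aside for Malat1 of 50000 CPM or more (167 and 206 cells) often had a high share too, with 85 (50.9%) and 103 (50%) of them at 5% or above, whereas 1 of 13 and 23 of 183 Serpina3n-high RPE cells did. In cells with Rpe65 under 1000 CPM, mostly of the choroid and sclera, the median share was 1.37% and 1.23%.

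**Figure D1:**
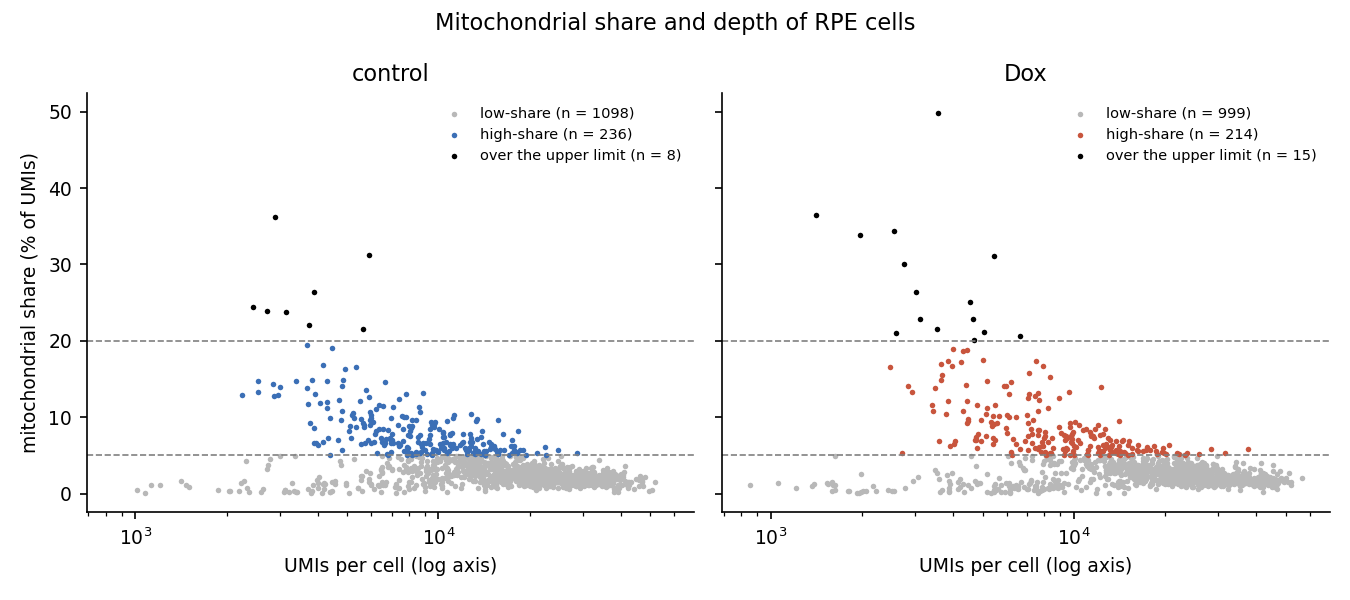
Mitochondrial share of each RPE cell (percent of its UMIs, vertical axis) against its total UMIs (log scale, horizontal axis) in the control and Dox libraries, with the limits of the group drawn at 5% and 20%. The 236 control and 214 Dox high-share cells join the low-share cells without a gap and lie toward lower UMI totals, with medians of 8562.5 and 8926 against 19859.5 and 21721.

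High-share RPE cells held less nuclear RNA and more mitochondrial RNA per cell than low-share cells. The median total was 8562.5 UMIs (quartiles 5996.75 and 12033) in the control and 8926 (5987.25 and 12464) in Dox, against 19859.5 and 21721 in low-share cells. Fewer UMIs than the median low-share cell were found in 231 of 236 control (97.9%) and 206 of 214 Dox cells (96.3%). Split by genome, the median cell had 7846.5 and 8075.5 UMIs of nuclear genes against 19369 and 21074, ratios of 0.405 and 0.383. The mitochondrial UMIs went the other way, with medians of 664.5 and 693 against 438 and 496, ratios of 1.52 and 1.40. More mitochondrial UMIs than the median low-share cell were counted in 199 control (84.3%) and 163 Dox cells (76.2%). Both counts enter the share by which the cells were chosen, so these values are a description. For Malat1, a nuclear-retained long non-coding RNA that the rule capped at 50000 CPM, the median count was 181.5 and 173.5 UMIs per high-share cell against 144 and 138 per low-share cell. In contrast, Rpe65 itself gave medians of 36 and 39 UMIs per cell against 95 and 116. The median number of detected genes was 2823.5 and 2902 against 4154 and 4366, but at equal depth the order was reversed: thinned to 2000 nuclear UMIs per cell, which 235 control and 214 Dox high-share cells reached, the medians were 1084 and 1063 genes against 954 and 951. The source of the lower UMI totals was not tested.

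These amounts changed gradually over the range of shares. In control RPE cells from 1% to below 2%, a mean of 359.35 mitochondrial UMIs stood beside 1088.40 UMIs of nuclear-encoded respiratory genes. From 5% to below 7% the means were 668.65 and 393.48 UMIs, and from 10% to below 15% they were 666.48 and 133.69 UMIs. In Dox the same 3 steps gave 408.49 and 1224.11, 729.80 and 459.77, and 718.94 and 150.14 UMIs. Mitochondrial UMIs per cell thus stayed close to level from 5% to below 15%, while nuclear-encoded respiratory transcripts kept declining. The bins were cut on the share, so with level mitochondrial UMIs the nuclear UMIs as a whole had to fall, and these values are a description. Other nuclear transcripts declined too. Between the same 2 bins of the control, Rpe65 went from 59.78 to 24.31 and ribosomal protein genes from 493.94 to 177.41 UMIs per cell. From 15% to below 20% the means were 789.6 and 83.4 UMIs over 5 control cells, and 852.43 and 102.43 over 14 Dox cells. RPE cells with a share below 1% had medians of 9975 and 7441 UMIs, and their Malat1 level was 4558 and 4783 per 1000000 nuclear UMIs, below the 23157 and 18021 of cells from 5% to 7%.

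**Figure D2:**
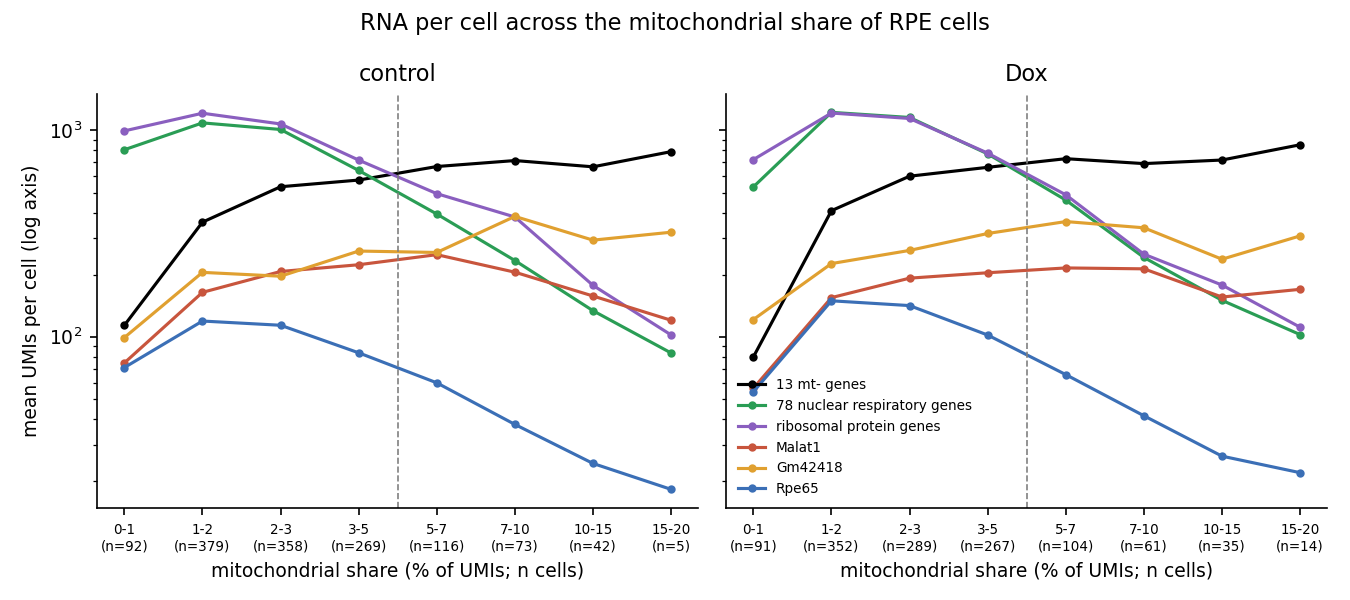
Mean UMIs per RPE cell (vertical log axis) by bin of mitochondrial share (percent of UMIs, horizontal axis, with the number of cells) in the control and Dox libraries, with 1 line each for the 13 mitochondrial genes, the nuclear-encoded respiratory genes, ribosomal protein genes, Malat1, Gm42418 and Rpe65, and a dashed line at the lower limit of the group. Mitochondrial UMIs are nearly level from 5% to below 15% while nuclear-encoded respiratory UMIs decline from 393.48 to 133.69 per control cell between the bins at 5% to 7% and 10% to 15%. Bins cut on the share require such a fall of nuclear UMIs as a whole.

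The cells carried the transcripts of RPE. To compare composition, levels were set per 1000000 nuclear UMIs (nuclear CPM), so that the mitochondrial share does not enter the denominator. The 12 genes of the visual cycle summed to 89458 nuclear CPM in control and 95973 in Dox high-share cells. Of these sums Ttr held 62.9% and 63.0%, and they include Rpe65, by which all the cells compared were chosen. Low-share cells gave 113583 and 118772, and cells with Rpe65 under 1000 CPM gave 5371 and 8333. Rpe65, on which both groups and the cells outside them were chosen, is given as a description: it (ENSMUSG00000028174, chromosome 3, 159599175 to 159625321, build GRCm38) was at 5271 nuclear CPM in high-share and 5259 in low-share control cells, and at 5391 and 5804 in Dox. Of 18 rod markers, 9 were at 0 in the control and 7 in Dox, in both Gnat1, Nrl and Rcvrn. The list summed to 490.5 and 489.6 nuclear CPM, against 156 and 174 in cells with Rpe65 under 1000 CPM, and its most abundant member was Gnb1, a G protein subunit of many cell types, with 51.1% of the sum in the control, and Rom1, an outer segment protein, with 50.5% in Dox. Stmn3, a tubulin-binding stathmin given as a marker of the group, was a weak one. It stood at 35.2 nuclear CPM against 18.9 in the control, from 72 UMIs, with 12 in each of a pair of cells. In Dox it stood at 6.63 against 5.77, from 13 UMIs of which 8 lay in 1 cell. Per cell it was not enriched, with means of 0.305 against 0.377 UMIs in the control and 0.0607 against 0.125 in Dox. The group is therefore best described by its mitochondrial RNA and not by Stmn3.

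All 13 mitochondrially encoded genes were higher relative to nuclear RNA, as the rule requires, and by similar amounts. The log2 ratio of high-share over low-share cells lay between 1.68 for mt-Cytb in Dox and 2.02 for mt-Atp8 in the control. Transcripts of mt-Co1, the catalytic subunit of cytochrome c oxidase (chromosome M, 5328 to 6872), stood at 14698 per 1000000 nuclear UMIs against 4368 in the control and at 15030 against 4492 in Dox. What the rule did not use is how the mitochondrial UMIs were divided among the genes. That division hardly differed between high-share and low-share cells. The share of mt-Cytb, of complex III, among mitochondrial UMIs was 17.7% in both libraries against 19.1% and 18.8%. The share of mt-Atp8, a small subunit of ATP synthase, was 0.21 higher on the log2 scale in the control and 0.14 higher in Dox, and that of mt-Nd6, the subunit encoded on the opposite strand, went in different directions, 0.20 (−0.04 to 0.43) and −0.05.

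Most nuclear-encoded genes of the respiratory chain and ATP synthase were lower. Of 79 listed respiratory chain and ATP synthase genes, 78 had at least 20 UMIs, and 72 of them had a lower nuclear CPM in high-share cells in each library. Their median log2 ratio was −0.43 in the control and −0.40 in Dox, where the median of the genes entered in the 2-fold counts was 0.21 and 0.13. Most of these mRNAs are short, and short mRNAs as a whole were lower. The 44 respiratory genes under 1 kb had medians of −0.44 and −0.39, against −0.38 and −0.37 for all 344 genes of that length. The 24 from 1 to 2 kb had −0.38 and −0.46, against −0.27 and −0.28. The longer ones stood below their class: the 8 from 2 to 4 kb had −0.13 and −0.08, against 0.23 and 0.20. The 2 from 4 to 6 kb had −0.65 and −0.57, against 0.67 and 0.64. The summed level was 33593 nuclear CPM against 46733 in the control and 35338 against 47073 in Dox. By complex, the medians in control and Dox were −0.40 and −0.39 for the 37 genes of complex I, −0.31 and −0.18 for 4 of complex II, of which 2 were above 0 in each library, −0.49 and −0.37 for 9 of complex III, −0.54 and −0.44 for 11 of complex IV, and −0.42 and −0.45 for 17 of ATP synthase. Of the 11 listed genes of complex IV and the 17 measured ones of ATP synthase, none was higher in either library. Cox8b, a complex IV subunit outside the list, gave −0.56 in the control and 0.01 in Dox, where its sign changed among settings. Atp5g3, a subunit of the proton-carrying ring of ATP synthase (ENSMUSG00000018770, chromosome 2, 73908447 to 73911326), was at 646 against 1298 nuclear CPM in the control and 684 against 1306 in Dox. These are log2 ratios of −1.01 (−1.09 to −0.93) and −0.93 (−1.01 to −0.85). In Malat1-rich RPE cells Atp5g3 was lower still, at 385 and 382 nuclear CPM. Cox5a of complex IV stood at 162 against 311 and 169 against 303 nuclear CPM, and Ndufa4 at 1030 against 1840 and 1086 against 1837. The exceptions were few. Ndufs1, the largest subunit of complex I, was higher by 0.49 and 0.57, and Sdha, the flavoprotein of complex II, gave 0.15 (−0.04 to 0.34) and 0.14 (−0.06 to 0.32). In these cells, high RNA of the mitochondrial genome thus stood beside low RNA of most nuclear-encoded subunits of complexes I, III, IV and ATP synthase. Complex II has no mitochondrially encoded subunit. The respiratory genes under 1 kb, most of those measured, were close to all genes of that length.

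Across all nuclear genes, the difference from low-share cells was lopsided. Of 3074 genes with enough UMIs in both libraries (at least 50 UMIs, and 50 nuclear CPM in either group), 210 (6.83%) were at least 2-fold higher in high-share cells in both, and 1 (0.0325%), Spcs1, was at least 2-fold lower in both. The control alone gave 427 of 3294 genes higher (13%) and 9 lower (0.273%), and Dox alone gave 302 of 3203 higher (9.43%) and 7 lower (0.219%). The median gene was at 0.21 in the control and 0.13 in Dox on the log2 scale. Centred on that median, 76 genes were higher and 6 lower in both libraries, and per 1000000 of all UMIs 119 and 3. A gene that reached 50 nuclear CPM only in the group where it was high had to differ, and the counts include such genes. The genes behaved alike in the libraries, with the same sign in 2802 of 3074 (91.2%) and a Pearson correlation of 0.94 across genes, which are not independent replicates and share the limits that defined the groups. These counts describe the groups, since a rule on the share chose the cells. They changed more with the limits on share and depth, as given in the section on processing.

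Long non-coding RNAs of the nucleus were among the genes with the highest ratios. Malat1 (ENSMUSG00000092341, chromosome 19, 5795690 to 5802672) was at 25024 against 9310 nuclear CPM in the control and 22068 against 7840 in Dox, log2 ratios of 1.43 (1.41 to 1.44) and 1.49 (1.48 to 1.51), although the rule set an upper limit on it. Neat1, the scaffold of paraspeckles, was at 76.7 against 27.7 and 73.4 against 18.7 nuclear CPM. Kcnq1ot1, the imprinted antisense RNA that lies within Kcnq1, was at 76.7 against 26.2 and 87.2 against 27.8. In the list of nuclear non-coding RNAs, 9 of 9 measured members were higher in the control and 6 of 7 in Dox, with medians of 1.47 and 1.65. Kcnq1ot1 and Neat1 stood higher still in the Malat1-rich RPE cells that the rule put aside, at 550 and 480 nuclear CPM for the former and 325 and 338 for the latter, so that their level does not mark the high-share cells alone. Gm42418 and Gm26917, which lie side by side on chromosome 17 (39846958 to 39848788 and 39843013 to 39846341), also stood high. Gm42418 was at 34998 against 10404 in the control and 36130 against 11594 in Dox, and Gm26917 at 451.9 against 112.8 and 438.1 against 91.7. In Malat1-rich RPE cells Gm26917 stood higher still, at 4102 and 4919 nuclear CPM, whereas Gm42418 was below the high-share level, at 19580 and 14806. Gm42418 overlaps AY036118 on the opposite strand by 923 bases, and in Dox a pair of cells gave 102 and 87 of the 859 Gm26917 UMIs.

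Protein-coding genes held other high ranks, with varied roles. Spry2, an inhibitor of receptor tyrosine kinase signalling, was at 52.3 against 15.9 nuclear CPM in the control and 51.0 against 14.7 in Dox. Ogt, which attaches O-GlcNAc to nuclear and cytoplasmic proteins, was at 99.7 against 31.0 and 92.8 against 28.5, log2 ratios of 1.69 (1.45 to 1.91) and 1.70 (1.45 to 1.94). Lars2, the mitochondrial leucyl-tRNA synthetase, was at 2575 against 863.6 and 3147 against 894.7, ratios of 1.58 (1.53 to 1.62) and 1.81 (1.77 to 1.86). Leng8, Caskin1, a synaptic scaffold, and Crocc, the rootletin of the ciliary rootlet, were each higher by 1.53 to 2.06. Of these genes, all but Lars2 reached the limit of 50 nuclear CPM only in high-share cells, where they were higher, so their ranks are a description. In Malat1-rich RPE cells Ogt (286 and 278 nuclear CPM), Leng8 (299 and 275), Caskin1 (128 and 108) and Crocc (76.4 and 69.6) stood higher still. Lars2 (1808 and 915) and Spry2 (23.2 and 20.2) were below the high-share level there. At the other end Spcs1, a subunit of the signal peptidase of the endoplasmic reticulum (ENSMUSG00000021917, chromosome 14, 30999826 to 31001672), was at 178 against 422 nuclear CPM in the control and 181 against 397 in Dox. The log2 ratios were −1.24 (−1.40 to −1.09) and −1.13 (−1.29 to −0.98). In Malat1-rich RPE cells Spcs1 was lower still, at 147 and 115 nuclear CPM. Psmb1, a core subunit of the proteasome, was at 148 against 305 and 146 against 291. Beside Atp5g3 and Cox5a, the lower genes included Mrpl14, a mitochondrial ribosomal protein, Timm17a, of the inner membrane import channel, Chchd1, Exosc3, of the RNA exosome, Mcrip1 and Rab5if. They also held Myoc, a gene of trabecular meshwork and scleral cells, at −0.86 and −1.27, with 42.5% and 35.6% of its high-share UMIs in 1 cell, and in Dox it turned to 1.17 without the RPE cells richest in markers of other types. Rab5if and Exosc3, and in Dox Myoc, reached 50 nuclear CPM only in low-share cells, so their ranks are a description too.

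Transcript length separated the higher from the lower genes. For 3040 of the 3074 genes (98.9%) the longest annotated protein-coding mRNA was known, a comparison chosen after the data were seen. The 344 genes under 1 kb had median log2 ratios of −0.38 in the control and −0.37 in Dox, and 11.3% and 8.14% of them were above 0. From 1 to 2 kb the medians were −0.27 and −0.28, from 2 to 4 kb 0.23 and 0.20, and from 4 to 6 kb 0.67 and 0.64. The 423 genes of 6 kb or more had medians of 0.92 and 0.83, with 96.0% and 95.7% above 0. The order held at every step in both libraries, and across genes the Spearman correlation of length with the ratio was 0.71 and 0.74. Among the 210 genes at least 2-fold higher in both libraries, 202 had a length, and 162 of those (80.2%) were 4 kb or longer, against 30.2% of all genes compared. In summed UMIs per cell each class of length stood below low-share cells, and mRNAs of 6 kb or more fell least short, with 741 against 979 UMIs per control cell (a ratio of 0.757) and 764 against 1078 per Dox cell (0.708). Those under 1 kb gave 1563 against 5249 (0.298) and 1730 against 5688 (0.304). Single genes could go the other way, as Ogt did, with means of 0.864 against 0.617 UMIs per control cell and 0.850 against 0.619 per Dox cell. Sod1, the cytosolic superoxide dismutase, departed from this order, since its longest mRNA has 641 bases and it stood at 273 against 112 nuclear CPM in the control and 255 against 116 in Dox.

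In a narrower window of depth the ratios of the 210 genes were smaller. Among cells with 5000 to 20000 UMIs, 195 control and 168 Dox high-share cells had medians of 9341 and 9710 UMIs, and 500 and 382 low-share cells had 14272 and 14188. The count of genes at least 2-fold higher in both libraries was then 11 in place of 210, with the minimum of UMIs applied within the window, and 12 of the 210 when it was not applied again. All 210 genes, which were chosen for high ratios, kept a ratio above 0 in both libraries, 194 of them at least 1.5-fold, and their median went from 1.22 and 1.14 to 0.89 and 0.83. The order by length also held there, from −0.32 and −0.34 under 1 kb to 0.66 and 0.59 at 6 kb or more. Within this window the groups still differed in depth, and the low-share cells had median shares of 2.71% and 2.85%, above those of all low-share cells, so that the contrast in share was narrower too. What set the smaller count was not tested.

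**Figure D3:**
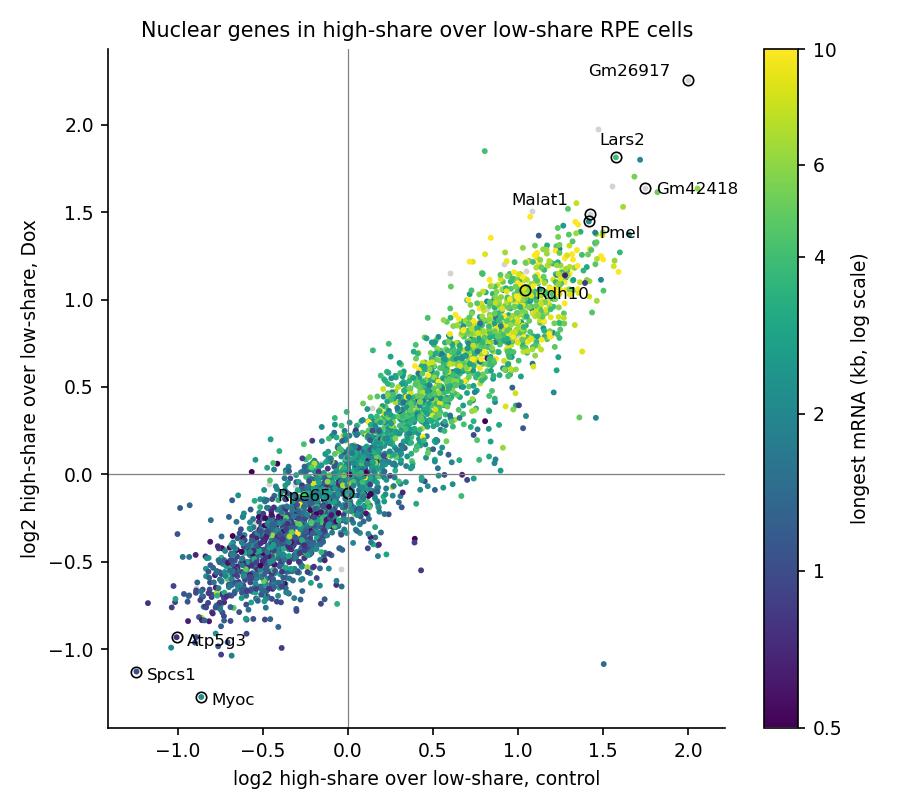
Log2 ratio of nuclear CPM in high-share over low-share RPE cells in the control (horizontal axis) and Dox library (vertical axis) for 3074 nuclear genes, each a point coloured by the length of its longest protein-coding mRNA in kb (log scale, grey where none is known), with named genes circled. Long mRNAs lie toward the upper right, where 210 genes reach 1 in both libraries, and short ones toward the lower left, where Spcs1 alone reaches −1 in both.

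Genes of RPE function did not move as a block. In the visual cycle, 7 of 12 genes were higher in the control and 6 of 12 in Dox, with a median of 0.02 in both. The sign of that median depended on the scaling. The 12 genes include Rpe65, by which the cells were chosen, so these counts and medians are a description. Rdh10, a retinol dehydrogenase that makes retinaldehyde (ENSMUSG00000025921, chromosome 1, 16105774 to 16133734), was at 1500 against 728 nuclear CPM in the control and 1616 against 779 in Dox, ratios of 1.04 (0.99 to 1.10) and 1.05 (1.0 to 1.11). Per cell it was close to level, with 13 against 14.5 and 14.8 against 16.9 UMIs. Lrat, which esterifies retinol, was higher by 0.53 and 0.41. Lower values were found for Ttr, the retinol carrier transthyretin (−0.43 and −0.38), the photoisomerase-like opsin Rgr (−0.30 and −0.28), and Rdh5 (−0.29 and −0.21). Rpe65, fixed from below by the rule, was at 0.00 (−0.03 to 0.03) and −0.11 (−0.14 to −0.08). The genes of this list therefore differed in opposite directions. They were not compared with other genes of their transcript length.

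Transporters and transcription factors were mostly higher, by about as much as all genes with at least 20 UMIs, whose median was 0.49 and 0.39. Of the measured transport and adhesion genes, 18 of 20 were higher in the control and 17 of 19 in Dox, with medians of 0.59 and 0.63. Slc4a2, an anion exchanger, was at 445 against 223 nuclear CPM in the control and 473 against 229 in Dox. The lactate transporters Slc16a1 and Slc16a8 were higher by 0.88 and 0.70, and by 0.48 and 0.51. Trpm3, a cation channel, was higher by 0.52 and 0.50. Bsg, the glycoprotein basigin that carries lactate transporters to the membrane, was an exception at 4409 against 6947 and 4915 against 7177 nuclear CPM. All 5 of 8 listed RPE transcription factors with enough UMIs were higher in both libraries, with medians of 0.59 and 0.50. Otx2, the homeobox factor of RPE fate, gave 0.68 and 0.50, Mitf, the regulator of pigment genes, 0.59 and 0.62, and Sox9 0.18 and 0.15. In the pigment list, 12 of 13 genes were higher in the control and 11 of 13 in Dox, with medians of 1.01 and 0.58. Melanocyte markers had medians of 1.12 and 0.79 in the same comparison. Pigment genes past 2-fold were, among others, Rab27a, which tethers melanosomes (1.24 and 1.21), and, in the control, the melanosome motor Myo7a (1.13 and 0.97).

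Most ribosomal protein genes were lower, 55 of 76 in the control and 69 of 76 in Dox, with medians of −0.15 and −0.35. The 44 under 1 kb had medians of −0.16 and −0.33, not below the −0.38 and −0.37 of all genes of that length. Among lists of metabolism, the medians were −0.12 and −0.02 for glycolysis and −0.15 and 0.03 for the citric acid cycle with fatty acid oxidation, both with signs that changed with the scaling. Genes for mitochondrial expression machinery, which transcribe and translate the mitochondrial genome, had medians of 0.06 and 0.32, the first of which changed sign among settings, and mitochondrial quality control genes −0.18 and −0.10. Antioxidant genes had medians of −0.23 and −0.24 but contained opposite cases. Against Sod1 stood Gpx4, which reduces lipid peroxides (−0.85 and −0.66), and Prdx1, a peroxiredoxin (−0.75 and −0.75). Integrated stress response genes had medians of 0.63 and 0.42, and p53 target genes 0.41 and 0.31, where the median of all genes was 0.49 and 0.39. Cdkn1a, the cell cycle inhibitor p21, was higher by 1.21 in the control and 0.47 in Dox, and the antiproliferative p53 target Btg2 by 1.02 and 0.56. Over the settings the Cdkn1a ratio lay between 0.57 and 1.24 in the control and between −0.04 and 0.65 in Dox. Immediate early genes, the fast transcriptional response to stimuli, were above 0 in 16 of 16 cases in the control and 14 of 16 in Dox, with medians of 0.77 and 0.23, the second of which turned to −0.71 among cells with 5000 to 20000 UMIs.

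**Figure D4:**
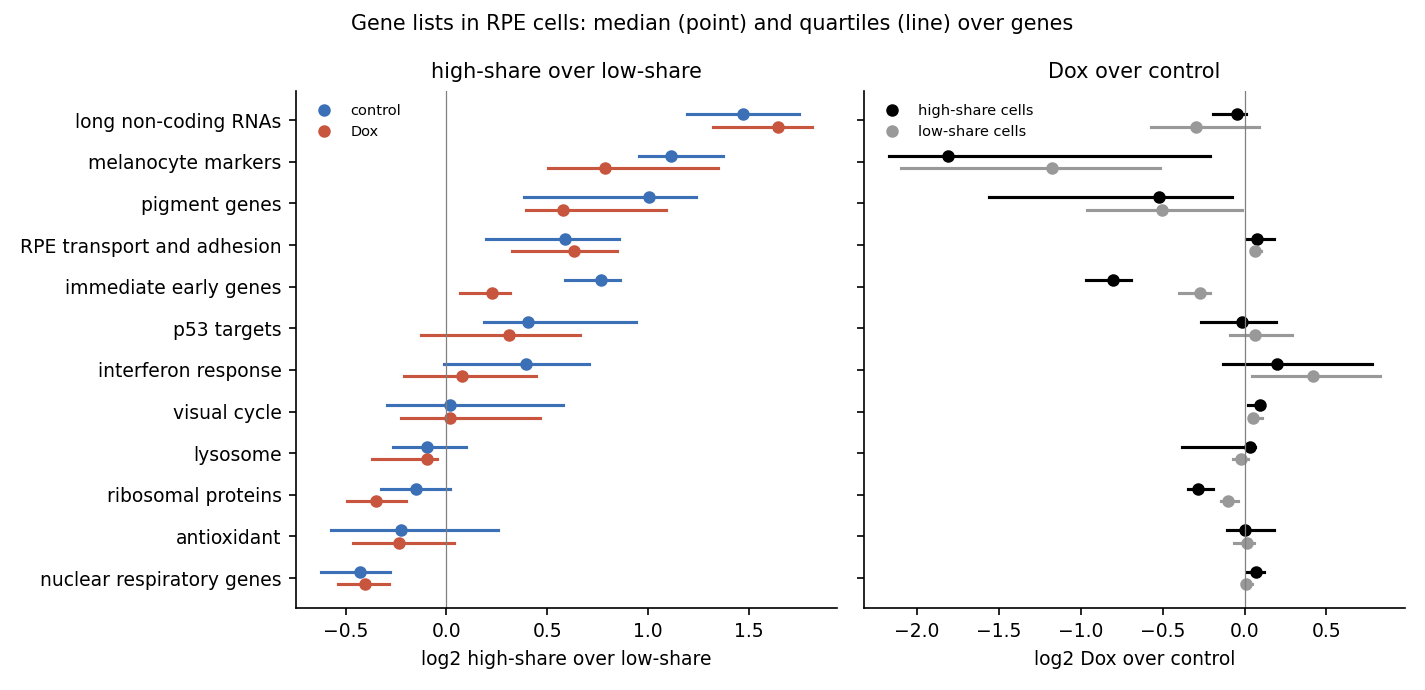
Median (point) and quartiles (line) over the genes of 12 lists of the log2 ratio of nuclear CPM, for high-share over low-share cells in the control and Dox libraries on the left, and for Dox over control in high-share and low-share cells on the right. On the left the long non-coding RNAs have medians of 1.47 and 1.65 and the nuclear-encoded respiratory genes −0.43 and −0.40, and on the right the immediate early genes have medians of −0.80 and −0.27.

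Markers of other cell types of the tissue were also measured in the group. Melanocyte markers had medians of 1.12 and 0.79 for high-share over low-share cells, smooth muscle markers 1.09 and 1.06, macrophage markers 0.68 and 0.22, and fibroblast markers 0.14 and 0.28. The fibroblast medians and the smooth muscle median in the control changed sign among settings. Schwann cell markers had medians of 1.76 over 7 genes and 0.83 over 4, endothelial markers 0.56 over 7 and −0.26 over 4, and T and natural killer cell markers −0.09 over 6 and −1.42 over 2. The summed level in high-share cells was 846 nuclear CPM in the control and 254 in Dox for the macrophage list, against 3787 and 3038 in cells with Rpe65 under 1000 CPM. Its most abundant member was Cd74 with 31.1% in the control and Csf1r with 69.7% in Dox. The sum was 1862 and 949 for the fibroblast list, against 18762 and 18545, and 727 and 501 for smooth muscle. The melanocyte list summed to 45376 and 52117, of which Ptgds, a prostaglandin synthase that RPE cells also express, held 95% and 98.3%. Endothelial markers summed to 87.0 and 54.6, Schwann cell markers to 408 and 328, erythroid markers to 8.79 and 4.08, and T and natural killer cell markers to 23.0 and 2.04 with 4 and 7 of 10 at 0. The part of RNA from other cells in the differences above was not tested gene by gene. A removal by markers of other types used the fibroblast, macrophage, T and natural killer, endothelial and smooth muscle lists. Melanocyte, Schwann cell and erythroid markers did not enter it. Without the 10% of RPE cells richest in the markers used, 222 genes in place of 210 were at least 2-fold higher.

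Between the libraries, the high-share cells differed in few nuclear genes, and most of those were lower in Dox. Of 3282 genes with enough UMIs, 3 (0.0914%) were at least 2-fold higher in Dox and 55 (1.68%) at least 2-fold lower. In low-share cells 1 of 2587 (0.0387%), Serpina3n, was higher and 6 (0.232%) lower. The median over the genes compared was −0.01 and 0.01. The groups were of different depth and size, and whether the response differed between them was not tested. A gene that reached the minimum of nuclear CPM only in the library where it was high had to differ, and the counts include such genes. In high-share cells these were, among others, Gbp3 (28.3 nuclear CPM in control and 57.6 in Dox), Serpina3n (24.9 and 69.9) and Cxcl2 (108 and 6.63), but not Ifi27 (147.5 and 332.0). In low-share cells Serpina3n (26.7 and 58.7), on which the rule set an upper limit, was also such a gene. Gbp3 and Cxcl2 stayed below that minimum of nuclear CPM in low-share cells and were not counted there, with log2 ratios of 1.20 and −2.31. The counts also changed with the settings, as given in the section on processing.

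Among the genes higher in Dox were interferon-responsive ones. Ifi27 (ENSMUSG00000064215, chromosome 12, 103434211 to 103440239), an interferon-induced mitochondrial protein, was at 147.5 nuclear CPM in control and 332.0 in Dox high-share cells, a log2 ratio of 1.17 (0.97 to 1.37), beside 0.95 in low-share cells. Gbp3, an interferon-induced GTPase, was at 28.3 and 57.6, a ratio of 1.02 (0.56 to 1.51), beside 1.20. The other gene past 2-fold was Serpina3n, an acute-phase protease inhibitor, at 1.48 (1.01 to 1.98) under the upper limit that the rule set on it. Bst2, the antiviral tether tetherin, was at 183 and 350, a ratio of 0.94 (0.76 to 1.13), and Ifit3, which blocks foreign RNA translation, at 0.70 (0.39 to 1.02), beside 0.82 and 0.92. The interferon list as a whole had a median of 0.20 with 13 of 22 members above 0, beside 0.42 with 19 of 25 in low-share cells. The remaining leaders were Gsta2, a glutathione transferase (0.78, beside 0.43), the mechanosensitive channel Piezo1 (0.70, beside 0.21), 1700018L02Rik, Zfp444, Lrmda, Ift57 and Cox8b. Of these, all but Cox8b reached the limit of 50 nuclear CPM only in Dox, where they were higher, so their ranks are a description. For Cox8b, a muscle-type subunit of complex IV, the levels were 542 and 851 nuclear CPM, a ratio of 0.65 (0.54 to 0.76), where low-share cells gave 0.07 (0.04 to 0.10) and cells with Rpe65 under 1000 CPM, at 43.1 and 98.5 nuclear CPM, gave 1.19.

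Most immediate early genes were lower in Dox. In high-share cells 15 of 16 were below 0, with a median of −0.80, and over the alternative settings the median lay between −1.0 and −0.45. Low-share cells gave a median of −0.27, which lay between −0.62 and 0.17. Atf3, a stress-induced factor, was at −1.53 (−1.78 to −1.30), Klf2 at −1.18 (−1.40 to −0.97), Ier2 at −1.07 and Zfp36, which destabilizes inflammatory mRNAs, at −1.05. These 4 of 16 were at least 2-fold lower, beside 1.68% of all genes, and the ratios in low-share cells were −0.74, −0.40, −0.57 and −0.40. Fos, of the AP-1 complex, was at −0.82 (−0.90 to −0.74), Junb at −0.89 and Egr1 at −0.81, whereas Jund, which is expressed without stimulation, was at 0.02. The small heat shock protein gene Hspb1 was at −1.05, beside −0.31. Cells with Rpe65 under 1000 CPM held far more Fos, 9713 nuclear CPM in the control and 10653 in Dox, where it was not lower in Dox. The 16 genes summed to 52693 and 56597 nuclear CPM there, against 8917 and 5194 in high-share cells. Fibroblast markers had a median of −0.73 for Dox over control in high-share cells, and RNA from other cells as a source was not tested.

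Many of the most negative ratios belonged to genes that are known, as background, from melanocytes or myeloid cells, and RNA from such cells as their source was not tested gene by gene. Pmel, the fibril protein of melanosomes (ENSMUSG00000025359, chromosome 10, 128704195 to 128720238), was at 667 nuclear CPM in control and 144 in Dox high-share cells, and at 250 and 53 in low-share cells. Its ratio of Dox over control was −2.21 (−2.40 to −2.02), beside −2.24 in low-share cells, and 1 cell gave 223 of 1365 UMIs in the control and 105 of 283 in Dox. Cells with Rpe65 under 1000 CPM showed the same order, at 1116 and 369. The melanoma antigen gene Mlana was at −1.60, the melanin enzyme gene Tyrp1 at −1.19, and Dct, another melanin enzyme, at −0.52. Also lower were the calcium-binding protein gene S100b at −2.56, the endothelin receptor gene Ednrb at −2.39 and the transcriptional coactivator gene Cited1 at −2.47. The melanocyte list had a median of −1.81, beside −1.18 in low-share cells, and the fibroblast list −0.73, beside −0.52.

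The ratio of each antigen presentation gene given here rested largely on 1 control cell, not shown to be the same for each. Cd74, the invariant chain, was at −3.44 (−3.92 to −3.02), but 462 of 538 control UMIs lay in 1 cell, and without the top cell of each library the ratio was −0.82. For the class II gene H2-Aa the ratio of −4.39 became −1.39, since 166 of 186 control UMIs lay in 1 cell. For H2-Eb1 the ratio of −3.78 became −0.24, with 140 of 150 UMIs in 1 cell. Other immune genes were also lower: the chemokine genes Cxcl2 at −3.97 (−4.96 to −3.22) and Cxcl10 at −2.30, Lyz2, the lysozyme of myeloid cells, at −2.50, and Spp1, osteopontin, at −2.16. Their size depended on single cells and on the limits, though not their sign: 1 Dox cell held 42 of 73 Spp1 UMIs and another 22 of 44 Cxcl10 UMIs, and over the settings Spp1 lay between −3.34 and −1.46, Cxcl10 between −4.60 and −1.03 and Cxcl2 between −5.05 and −1.71. The macrophage list had a median of −2.29, beside −1.61 in low-share cells. Csf1r, a receptor used as a macrophage marker, was at 193 and 177 nuclear CPM in high-share cells, a ratio of −0.12 (−0.34 to 0.09), and at only 25 and 17 in cells with Rpe65 under 1000 CPM. The neuropeptide gene Cck was at −3.77, beside −2.37 in low-share cells.

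**Figure D5:**
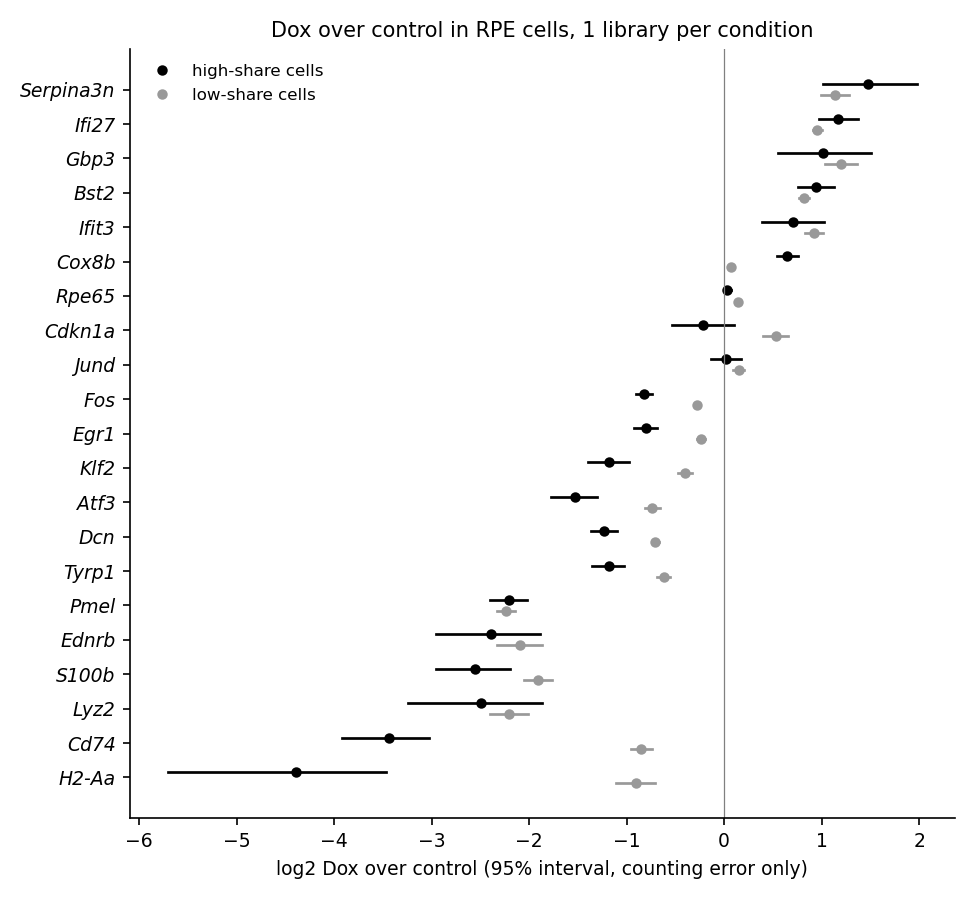
Log2 ratio of nuclear CPM of Dox over control (horizontal axis) for named genes in high-share (black) and low-share (grey) RPE cells, with lines for the exact 95% interval of counting error. In high-share cells Ifi27 and Gbp3 lie at 1.17 and 1.02, and Atf3, Klf2, Pmel and Cd74 lie at −1.53, −1.18, −2.21 and −3.44.

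Genes of RPE function and of respiration differed little between the libraries. In high-share cells the median of Dox over control was 0.09 for the visual cycle, 0.08 for transport and adhesion and 0.07 for the nuclear-encoded respiratory genes, of which 61 of 78 were above 0. Rpe65, a member of the visual cycle list by which the cells were chosen, was at 0.03 (−0.01 to 0.07). Ribosomal protein genes were lower in 73 of 76 cases, with a median of −0.28, beside −0.10 in low-share cells. The p53 target list was at −0.01, and Cdkn1a at −0.21 (−0.53 to 0.10), where low-share cells gave 0.53 (0.40 to 0.65). Without the RPE cells richest in markers of other types the ratio in high-share cells turned to 0.40, and in cells with 5000 to 20000 UMIs that in low-share cells was 0.13. The limit on Serpina3n had set aside 13 control and 183 Dox RPE cells before this comparison. The genes of senescence and apoptosis that the study named, which were chosen on these samples and are no independent evidence, had a median of 0.12. Gas6, the ligand that links outer segments to the phagocytic receptor Mertk, was at 0.38, with 50 of its 324 UMIs in 1 cell.

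The rule fixed the mitochondrial share alike in both libraries, so the level of these genes as a whole is no result, but their division among the 13 genes was free to differ. Transcripts of mt-Atp8 (chromosome M, 7766 to 7969) made up 3.77% of mitochondrial UMIs in control and 2.93% in Dox high-share cells, a log2 ratio of −0.36 (−0.42 to −0.31). Transcripts of mt-Atp6 (7927 to 8607), which overlaps mt-Atp8 by 43 bases on the same strand, made up 7.39% and 8.26%, a ratio of 0.16 (0.12 to 0.20). The same shift was found in low-share cells, at 3.26% and 2.66% for mt-Atp8 and 7.23% and 8.07% for mt-Atp6. It was also found in cells with Rpe65 under 1000 CPM, at 4.55% and 3.60%, and at 7.22% and 8.21%. It thus marked the library and not the high-share cells, and reads of the overlapping pair cannot be fully told apart.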

How the data were processed

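Single-cell RNA was measured in 1 control and 1 Dox library of mouse RPE, choroid and sclera. The authors aligned the reads to mm10, per the submitters' processing notes, with Cell Ranger (4.0.0 per the file headers), and deposited raw UMI counts of 32285 genes.

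Cells were chosen by the limits given in the report; RPE cells needed 10 UMIs of Rpe65, and no doublet caller was run, so doublets were limited only by the upper limit of 6000 genes. UMIs were summed per library and group and divided by the summed nuclear UMIs (all genes but the 13 mitochondrial ones). A log2 ratio was taken after 0.5 counts were added to each sum. Ratios have exact conditional binomial intervals, and percentages have Clopper-Pearson intervals, both at 95%. Genes entered the 2-fold counts with at least 50 UMIs over both groups and 50 nuclear CPM in either, and list medians with at least 20 UMIs. Symbols carried by more than 1 row (40) were left out of the ranking. Of 495 listed genes in 34 lists, 492 were in the files. Positions and mRNA lengths came from GENCODE vM21 on GRCm38, the assembly also named mm10.

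The named genes were the mitochondrial genes, the 12 largest ratios each way in each comparison, the most abundant list members and those past 2-fold, and genes named by the study. The members and lists were chosen with earlier results of these data known, and some lists came from an earlier analysis of them. The intervals were tested on simulated data: of 200 genes changed 2-fold among 7611, all had the right direction, and the intervals held the true value for 96.5% of them and 95.7% of the others. The alternatives were 15 planned settings and 2 chosen after seeing the data, the removal of each gene's top cell and of cells rich in melanocyte markers. Python 3.11.15, numpy 2.4.6, scipy 1.17.1, pandas 2.3.3 and matplotlib 3.10.9 were used.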

Additional observations from a re-analysis of the deposited data

Results flagged for a closer look

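Genes of antigen presentation had opposite signs in the libraries for high-share over low-share RPE cells. The log2 ratio of H2-Aa was 1.69 in the control and −1.80 in Dox, that of H2-Eb1 1.60 and −1.08, and that of Cd74 1.505 and −1.09. The difference between the libraries was not tested, since each condition had 1 library. In the control high-share cells, 1 cell for each gene held 166 of 186 H2-Aa UMIs, 140 of 150 H2-Eb1 UMIs and 462 of 538 Cd74 UMIs. Without the cell with the most UMIs in each group, the signs were no longer opposite, at −1.02 and −1.06 for H2-Aa, −1.70 and −0.64 for H2-Eb1, and −0.86 and −0.49 for Cd74.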

How the results depend on the processing

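No paired analysis was possible because each condition had 1 library, and for the same reason no replicate could be left out. The 450 cells are a range of a continuous share, RPE identity rests on Rpe65, and depth differs between the groups. With a share of 10% to below 20%, 47 and 49 cells remained (3.5% and 3.99% of those within the limits), and 637 genes were at least 2-fold higher and 98 lower than in low-share cells in both libraries, with 17 genes lower in Dox. With a share of 5% to below 10% the percentages were 14.1% and 13.4%, and 136 genes were higher. In cells with 5000 to 20000 UMIs the percentages were 28.0% and 30.4%, and 11 genes were higher and 2 lower. With at least 3 UMIs of Rpe65 the percentages were 15.1% and 13.4%, and with at least 20 UMIs the control percentage was 14.8%, with 2 genes lower. At 1.5-fold, 794 genes were higher and 106 lower, 18 were higher in Dox and 140 lower. Centred on the median gene, 76 were higher and 6 lower, and per 1000000 of all UMIs 119 and 3. With cells thinned to 2000 nuclear UMIs, 10 were lower and 12 were higher in Dox. By the mean of the cells' own nuclear CPM 4 were lower, and without cells rich in other markers 2. The median of the nuclear non-coding RNAs in the control was 1.03 at 5000 to 20000 UMIs and 1.86 at 10% to below 20%. The median of the nuclear-encoded respiratory genes in control and Dox was −0.36 and −0.33 at 5000 to 20000 UMIs, −0.64 and −0.54 when centred, −0.51 and −0.48 per 1000000 of all UMIs, and −0.76 and −0.76 at 10% to below 20%. The cause of these shifts was not tested. Over 87 genes named by the rule, the sign was the same in every setting for 71 in the control and 62 in Dox for high-share over low-share cells, and for 41 in high-share and 60 in low-share cells for Dox over control. Among ratios and list medians of at least 2-fold, these changed sign. For high-share over low-share cells in Dox, 5000 to 20000 UMIs gave Cd74 1.11, H2-Aa 0.61, H2-Eb1 1.05 and Spp1 −0.12, and leaving out cells rich in other markers gave Cd74 1.36, H2-Aa 0.66, H2-Eb1 1.42 and Myoc 1.17. Ednrb in Dox was −0.26 by the cells' own CPM and −0.48 at 10% to below 20%, where H2-Eb1 was 0.38. In the control, leaving out the top cell gave Cd74 −0.86, H2-Aa −1.02 and H2-Eb1 −1.70, and 10% to below 20% gave Cd74 −0.098, H2-Eb1 −1.86 and a smooth muscle median of −0.58. For Dox over control, H2-Eb1 was 1.14 at 10% to below 20% and 0.32 without cells rich in other markers. Of the ranked genes, 24 of 24 ratios of the higher and 23 of 24 of the lower genes kept their sign in every setting (not Myoc in Dox), as did 12 of 12 higher and 11 of 12 lower in Dox (not H2-Eb1).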

Other observations

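Some gene groups belong to no comparison above. For high-share over low-share RPE cells, the 13 listed heat shock genes had median log2 ratios of 0.38 in the control and 0.07 in Dox, the interferon genes 0.39 and 0.08, and the 17 lysosomal genes −0.09 and −0.10, where the median of all genes was 0.49 and 0.39. The heat shock and interferon medians in Dox and the lysosomal median in the control changed sign among the settings.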
